A study of Mus musculus with 16 samples.

Results

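Enterocyte transcription factors, the DNA-binding proteins that switch on the genes of absorptive intestinal cells, were followed in RNA sequencing of small intestinal organoids. The group was given as 10 genes by name (Hnf4a, Hnf4g, Cdx1, Cdx2, Gata4, Gata6, Creb3l3, Vdr, Maf and Elf3), and each was found by its Ensembl identifier among the 49585 genes of the count table. The 16 cultures formed 4 groups of 4: fl/fl and ΔIEC organoids, each left untreated or treated with IL-22 at 10 ng/ml for 24 h. Both genotypes carry floxed Atg16l1 alleles on a C57BL/6 background, and ΔIEC mice carry in addition a villin-cre transgene, which is active in intestinal epithelial cells and removes Atg16l1 there. Mice were 8 to 12 weeks old, and fl/fl organoids without the transgene served as controls. Organoids grow from crypts in Matrigel and hold epithelial cells, with no immune or stromal compartment added. Each genotype was represented by 2 numbered organoid lines, and every line gave 2 cultures in each treatment state. The first line supplied replicates 1 and 2 and the second replicates 3 and 4. P-values therefore measure the spread among cultures of 2 lines, and genotype cannot be told apart from the particular lines.

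The members act in a hierarchy along the small intestine. CDX1 and CDX2 are homeodomain factors that set and hold intestinal identity. HNF4A and HNF4G are nuclear receptors with overlapping roles in the absorptive programme, including the genes of fat handling and of the brush border. GATA4 and GATA6 are zinc-finger factors; GATA4 is known for keeping the proximal small intestine distinct from the ileum. VDR is the vitamin D receptor, which drives calcium uptake genes, CREB3L3 is a membrane-bound factor of lipid metabolism, MAF is a basic leucine zipper factor known in enterocytes of the villus, and ELF3 is an epithelial ETS factor.

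On GRCm38, Hnf4a (ENSMUSG00000017950.16) lies on the plus strand of chromosome 2 from 163506808 to 163572910, Hnf4g (ENSMUSG00000017688.14) on the plus strand of chromosome 3 from 3508030 to 3658052, and Cdx2 (ENSMUSG00000029646.3) on the minus strand of chromosome 5 from 147300805 to 147307270. On the minus strand lie also Gata4 (ENSMUSG00000021944.15, chromosome 14, 63198922 to 63271692), Vdr (ENSMUSG00000022479.15, chromosome 15, 97854425 to 97910630), Creb3l3 (ENSMUSG00000035041.8, chromosome 10, 81084324 to 81098874), Maf (ENSMUSG00000055435.6, chromosome 8, 115682942 to 115707794) and Elf3 (ENSMUSG00000003051.13, chromosome 1, 135253575 to 135258568). Cdx1 (ENSMUSG00000024619.8) and Gata6 (ENSMUSG00000005836.8) are on chromosome 18.

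All 10 members passed the filter on low counts and were tested. Per culture, 2135000 to 5574860 reads were counted on genes. Atg16l1 was counted at 31.6 to 51.8 CPM (counts scaled to library size with edgeR's TMM factors) in the 8 fl/fl cultures and at 0.289 to 5.96 CPM in the 8 ΔIEC cultures, so the libraries matched their labelled genotype. Reg3g, an antimicrobial lectin gene induced by IL-22, rose from 15.0 ± 2.90 CPM (SD, n = 4) to 11913 ± 658 CPM in fl/fl and from 14.2 ± 4.52 to 15105 ± 2944 CPM in ΔIEC organoids. Of 12 stromal and endothelial markers none reached the filter, and their summed level was 1.62 to 7.25 CPM in every culture. Of 15 enterocyte markers all 15 were tested, of which 11 fell and 1 rose with IL-22 in fl/fl and 8 fell and 1 rose in ΔIEC organoids, and their summed level was 5725 to 7596 CPM in untreated and 2254 to 3750 CPM in IL-22–treated cultures. Of 11 stem cell markers, 4 fell in fl/fl and 6 in ΔIEC organoids and none rose, and their summed level went from 2059 to 2857 CPM in untreated to 1198 to 1540 CPM in treated cultures. The part of these cell types in the IL-22 effects below was not tested.

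The upstream windows of Elf3, Vdr and Hnf4a are shown because these are the members that passed the test for IL-22 in fl/fl organoids, and because Hnf4a has more than 1 annotated start and gene counts do not separate them. The letters are the 250 bases before a start site, taken from RefSeq on GRCm38.p6, 5′ to 3′ along the gene. These start sites differ from the gene ends given above. The Vdr window and the downstream Hnf4a window lie inside their genes as positioned there. The Elf3 window and the upstream Hnf4a window run partly into theirs. The search covered windows of 5 of the 10 members: Elf3, Hnf4a, Vdr, Cdx2 and Creb3l3. No window of the other members was searched. Capitals mark matches to searched letters on either strand: the GC box (GGGCGG) in Vdr, and a GATA site (AGATAA), a GC box and an ETS site (CAGGAAG) in the upstream Hnf4a window. The Elf3 window and the downstream Hnf4a window held none of the searched letters. The GC box was added to the search after the windows had been read.
Elf3, chr1:135258473-135258722, minus strand: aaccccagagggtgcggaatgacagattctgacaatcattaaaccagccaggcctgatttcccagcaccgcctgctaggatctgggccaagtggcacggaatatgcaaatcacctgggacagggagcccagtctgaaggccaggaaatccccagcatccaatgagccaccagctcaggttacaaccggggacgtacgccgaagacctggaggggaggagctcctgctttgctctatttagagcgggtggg
Vdr, chr15:97908297-97908546, minus strand: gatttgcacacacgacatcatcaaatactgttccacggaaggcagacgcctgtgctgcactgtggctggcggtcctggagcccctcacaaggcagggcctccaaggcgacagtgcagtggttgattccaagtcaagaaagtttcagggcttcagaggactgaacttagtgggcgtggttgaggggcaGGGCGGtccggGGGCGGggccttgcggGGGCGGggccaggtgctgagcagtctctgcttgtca
Hnf4a, upstream start, chr2:163506607-163506856, plus strand: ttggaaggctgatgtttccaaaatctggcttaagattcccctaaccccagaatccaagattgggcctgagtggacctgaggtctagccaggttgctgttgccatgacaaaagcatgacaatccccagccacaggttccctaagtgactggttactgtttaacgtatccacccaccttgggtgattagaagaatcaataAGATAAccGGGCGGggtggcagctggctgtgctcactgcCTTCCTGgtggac
Hnf4a, downstream start, chr2:163546905-163547154, plus strand: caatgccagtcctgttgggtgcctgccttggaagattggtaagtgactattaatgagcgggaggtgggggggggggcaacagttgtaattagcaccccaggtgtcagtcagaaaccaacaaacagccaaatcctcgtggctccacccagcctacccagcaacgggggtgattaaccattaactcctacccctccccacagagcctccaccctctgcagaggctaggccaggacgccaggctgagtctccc
Of 32851 windows of this length in the table, 32.7% held the GC box, 9.99% the GATA site and 10.8% the ETS site. The STAT letters TTCNNNGAA were in 7.02% of all windows and in none of the 7 windows of the 5 searched members. The letters searched for HNF4 (CAAAGTCCA) and CDX (TTTATG) were in 0.384% and 10.8% of all windows, and also in none of the 7. The nuclear receptor half-site AGGTCA was in 14.0% of all windows and in 1 of the 7, upstream of Creb3l3. A match is a description of these letters and not a binding site. GC content was 61.2% in the Vdr window and 57.2% in the Elf3 window, against a median of 52.4% over all windows.

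In untreated fl/fl organoids, Hnf4a was the most abundant member per length and Maf the least. On the scale of CPM per kb of exon, levels were 202 ± 4.62 (SD, n = 4) for Hnf4a, 176 ± 10.6 for Elf3, 130 ± 7.47 for Cdx2, 61.4 ± 1.83 for Vdr, 49.7 ± 1.55 for Cdx1, 44.6 ± 3.40 for Gata4, 25.1 ± 5.53 for Hnf4g, 18.5 ± 3.72 for Creb3l3, 15.5 ± 1.02 for Gata6 and 8.13 ± 1.35 for Maf. The cultures of Cdx1 and Gata4 overlapped, as did those of Hnf4g and Creb3l3 and those of Creb3l3 and Gata6, and the other neighbours in this order did not. With IL-22, Elf3 stood above Hnf4a in both genotypes, at 338 ± 13.3 against 249 ± 9.75 CPM per kb in fl/fl and 283 ± 26.6 against 215 ± 5.75 CPM per kb in ΔIEC organoids. Vdr moved from rank 4 untreated to rank 6 with IL-22 in fl/fl, and from rank 5 to rank 6 in ΔIEC organoids. In IL-22–treated ΔIEC organoids Cdx1 reached 78.1 ± 9.51 CPM per kb, and its cultures overlapped those of Cdx2 at 90.8 ± 5.85 CPM per kb.

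**Figure D1:**
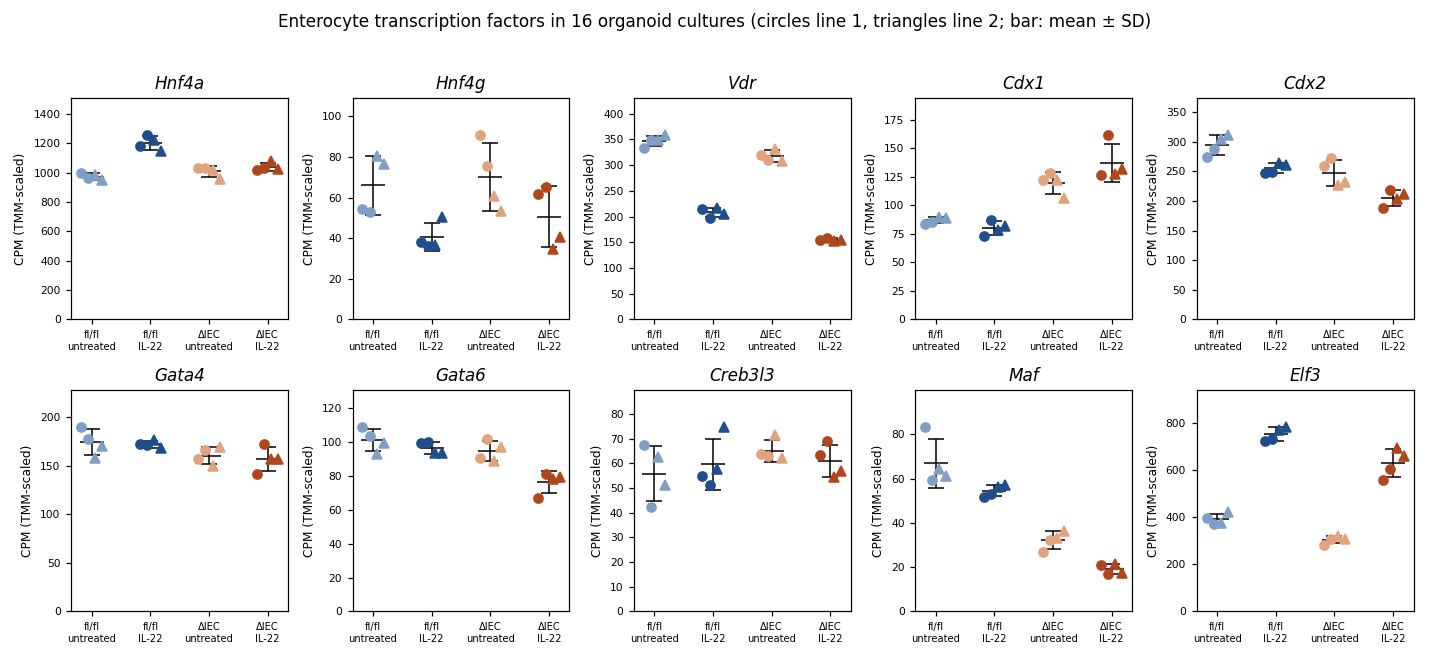
TMM-scaled CPM (vertical axis, from 0) of the 10 members in each of the 16 cultures, by group; circles are line 1 and triangles line 2 of a genotype, and the bars give the mean and SD of 4 cultures. Elf3 lies higher and Vdr lower in every IL-22 culture than in every untreated culture of the same genotype, and Maf is lower in every ΔIEC culture than in every fl/fl culture.

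The first question was what IL-22 did to these factors where Atg16l1 was intact. In fl/fl organoids, 3 of the 10 members passed the threshold (edgeR's quasi-likelihood test, two-sided, Benjamini-Hochberg adjusted p under 0.01 over all 12559 tested genes): Elf3 and Hnf4a rose and Vdr fell. Of all tested genes, 10.6% were called higher and 10.2% lower. The median log2 fold change was −0.09 over the members and −0.05 over all tested genes. In 6 members the IL-22 and untreated cultures did not overlap, against 30.9% of all tested genes.

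Elf3 was counted at 397, 369, 375 and 421 CPM in untreated and at 721, 728, 770 and 781 CPM in treated fl/fl cultures (replicates 1 to 4). The lowest treated value was far above the highest untreated one. The log2 fold change was 0.94 ± 0.076 (SE), or 1.92-fold, with an adjusted p of 1.86e-08 (edgeR). Gm26642, an antisense transcript that shares 162 exon bases with Elf3, moved with it, from 136 ± 3.36 to 245 ± 26.6 CPM. The strand setting of the counting is not given in the sources used here, so reads of this pair may not be separable.

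Vdr was counted at 333, 348, 348 and 358 CPM untreated and at 214, 197, 216 and 205 CPM with IL-22. The ranges did not meet. The fall was 1.67-fold (log2 fold change −0.74 ± 0.06, edgeR adjusted p = 2.13e-08), and the 2 lines gave ratios of 0.604 and 0.595. Hnf4a was counted at 998, 962, 984 and 949 CPM untreated and at 1183, 1255, 1225 and 1148 CPM with IL-22. No treated culture fell into the untreated range, and the rise was 1.24-fold (log2 fold change 0.31 ± 0.06, edgeR adjusted p = 0.000611). Summing cultures by line moved the adjusted p of Hnf4a to 0.0498, and leaving out the first or the second fl/fl line moved it to 0.0115 or 0.0153.

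Hnf4g, the paralog of Hnf4a, was counted at 54.3, 52.8, 80.7 and 76.5 CPM untreated and at 38.0, 36.0, 36.8 and 50.6 CPM with IL-22. The second line was the higher one in the untreated state, and the treated cultures all lay below the untreated ones. The log2 fold change of −0.71 ± 0.20 missed the threshold (edgeR adjusted p = 0.011). With organoid line as a block it passed (−0.72 ± 0.10, edgeR adjusted p = 1.44e-06), and it passed in 15 of 28 alternatives, but not with cultures summed by line (0.116). Cdx2 was counted at 273, 288, 305 and 311 CPM untreated and at 247, 249, 265 and 261 CPM with IL-22, also without overlap. Its log2 fold change was −0.21 ± 0.074 (edgeR adjusted p = 0.0396, and 0.00892 with line as a block). The block was the single alternative of 28 in which Cdx2 passed, and the adjusted p reached 0.267 in the others. The block raised the share of all tested genes called from 20.8% to 30.6%.

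The remaining members did not pass in fl/fl organoids. Maf gave −0.29 ± 0.11 (edgeR adjusted p = 0.0532), Cdx1 −0.12 ± 0.09, Gata6 −0.07 ± 0.078, Gata4 −0.02 ± 0.073 and Creb3l3 0.10 ± 0.13, all as log2 fold changes. For Gata4 the range of 2 SE on either side ran from −0.17 to 0.13 and for Creb3l3 from −0.17 to 0.37. Gata4 was counted at 158 to 190 CPM in the untreated and at 168 to 177 CPM in the treated fl/fl cultures, and Creb3l3 at 42.4 to 67.2 and at 51.2 to 74.6 CPM.

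The same comparison was made in ΔIEC organoids. Here 4 of the 10 members passed: Elf3 rose, and Vdr, Maf and Gata6 fell. Of all tested genes 9.83% were called higher and 7.65% lower, and the median log2 fold change was −0.18 over the members and −0.01 over all tested genes. The IL-22 and untreated cultures did not overlap in 5 members, against 27.3% of all tested genes.

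Elf3 was counted at 282, 309, 321 and 307 CPM untreated and at 557, 604, 691 and 657 CPM with IL-22 in the ΔIEC cultures. The treated range began well above the untreated one, and the rise was 2.06-fold (log2 fold change 1.04 ± 0.076, edgeR adjusted p = 4.30e-09). Vdr was counted at 320, 310, 332 and 308 CPM untreated and at 155, 158, 153 and 155 CPM with IL-22. The treated cultures lay within a few CPM of each other and far below the untreated ones, a 2.04-fold fall (log2 fold change −1.03 ± 0.061, edgeR adjusted p = 1.76e-10).

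Maf was counted at 26.9, 32.2, 33.0 and 36.5 CPM untreated and at 21.1, 16.8, 21.5 and 17.4 CPM with IL-22 in ΔIEC organoids. The ranges did not overlap, and the fall was 1.67-fold (log2 fold change −0.74 ± 0.14, edgeR adjusted p = 0.000396). Without the second ΔIEC line its adjusted p was 0.0266. Gata6 was counted at 90.8, 102, 88.9 and 97.2 CPM untreated and at 66.8, 81.2, 78.0 and 79.6 CPM with IL-22. The treated cultures were all lower, by 1.24-fold (log2 fold change −0.31 ± 0.081, edgeR adjusted p = 0.00711). This call passed in 17 of 28 alternatives, among them all that left out an fl/fl culture or line, which are outside this comparison. It was lost with cultures summed by line (edgeR adjusted p = 0.106), with only the groups compared (0.0186) and with no filter on low counts (0.0423), and leaving out the first ΔIEC line moved the adjusted p to 0.146 and leaving out the second to 0.0364. It was also lost without ΔIEC replicate 1, 2 or 4 in the untreated state or replicate 1, 3 or 4 with IL-22 (edgeR adjusted p of 0.0113 to 0.0342). Gata6 shares 93 exon bases with 1010001N08Rik, a transcript of the opposite strand counted at 4.97 ± 2.55 CPM in untreated and 3.35 ± 0.50 CPM in treated ΔIEC cultures, and at 9.49 ± 1.42 and 6.15 ± 1.79 CPM in fl/fl cultures. Reads of this pair may not be separable either.

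Cdx2 missed the threshold narrowly in ΔIEC organoids, at 259, 272, 227 and 231 CPM untreated and 188, 218, 204 and 211 CPM after treatment (log2 difference −0.27 ± 0.075, edgeR adjusted p = 0.0105, and 0.00167 with line as a block), and it passed in 7 of 28 alternatives. Hnf4g was counted at 90.8, 75.8, 60.7 and 53.2 CPM untreated and at 61.6, 65.0, 34.8 and 40.8 CPM with IL-22. In this genotype the first line was the higher one in both states, and the groups overlapped. Its log2 fold change was −0.50 ± 0.20 (edgeR adjusted p = 0.0673), and −0.47 ± 0.10 with line as a block (edgeR adjusted p = 0.000447), and it passed in 3 of 28 alternatives. The block raised the share of all tested genes called from 17.5% to 25.5%. Hnf4a gave 0.04 ± 0.06, Cdx1 0.19 ± 0.087, Gata4 −0.03 ± 0.074 and Creb3l3 −0.09 ± 0.13 as log2 fold changes, none past the threshold.

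**Figure D2:**
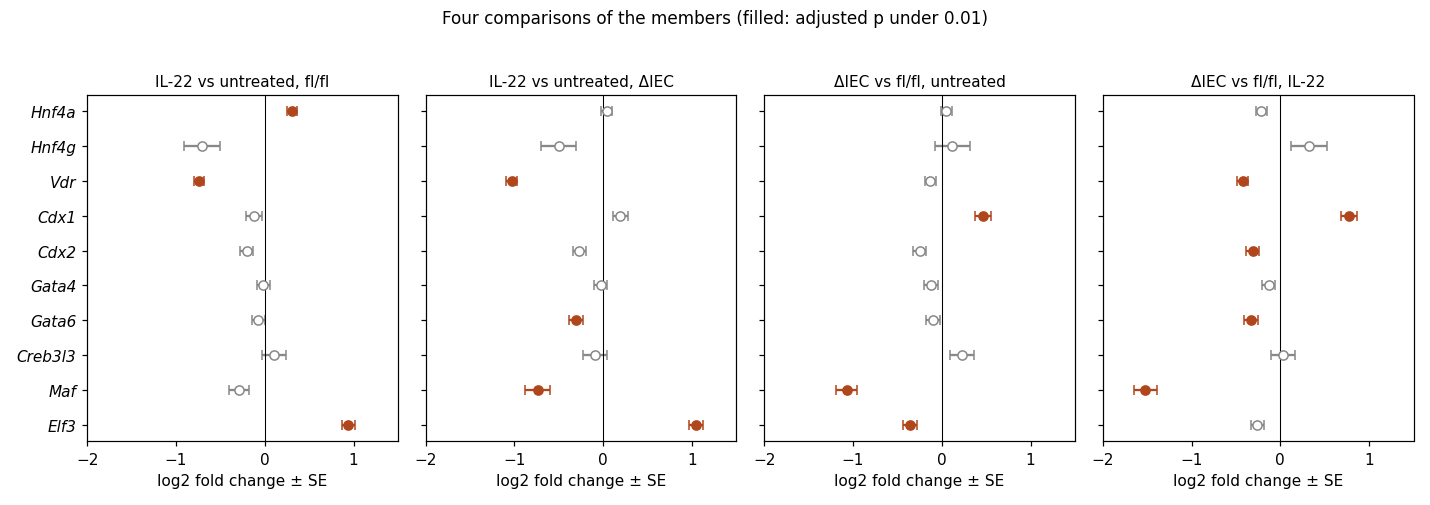
Log2 fold change (horizontal axis) of each member in the 4 comparisons, with bars of 1 SE from edgeR's fit of 4 group means; filled points have an adjusted p under 0.01. Elf3 and Vdr are filled in both IL-22 comparisons, and Maf and Cdx1 in both genotype comparisons.

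Whether IL-22 acted differently in the 2 genotypes was asked by the interaction. No member passed in edgeR's test, and 0.0159% of all tested genes did. At an unadjusted p under 0.05 there were 5 members, against 7.26% of all tested genes. In DESeq2 1 member, Hnf4a, passed (adjusted p = 0.00959), against 0.0876% of all tested genes. With line as a block no member passed either, against 0.446% of all tested genes. The difference of the log2 effects, ΔIEC minus fl/fl, was −0.27 ± 0.085 for Hnf4a (edgeR adjusted p = 0.441), −0.29 ± 0.085 for Vdr (0.381), 0.31 ± 0.13 for Cdx1 (0.57), −0.45 ± 0.18 for Maf (0.559) and −0.24 ± 0.11 for Gata6 (0.683). For Elf3 it was 0.10 ± 0.11, with 2 SE on either side running from −0.11 to 0.32. A difference between the genotypes in the response of a single member was therefore not established here, and the calls that passed in 1 genotype alone (Hnf4a, Maf and Gata6) were not shown to be particular to it.

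The genotypes were then compared in untreated organoids. Of the 10 members 3 passed: Cdx1 was higher, and Maf and Elf3 were lower, in ΔIEC organoids. Of all tested genes 3.78% were called higher and 5.98% lower, and the groups did not overlap in 5 members, against 23.3% of all tested genes. This comparison and that of IL-22 effects share the untreated cultures.

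Maf was counted at 83.3, 59.2, 64.4 and 61.0 CPM in the untreated fl/fl cultures, against the 26.9 to 36.5 CPM of the ΔIEC cultures. No culture of one genotype reached the range of the other, and the level was 2.10-fold lower in ΔIEC organoids (log2 fold change −1.07 ± 0.12, edgeR adjusted p = 1.01e-05). Cdx1 was counted at 83.9, 85.5, 89.8 and 88.5 CPM in fl/fl and at 122, 128, 122 and 106 CPM in ΔIEC organoids. The ΔIEC cultures were all higher, by 1.38-fold (log2 fold change 0.46 ± 0.089, edgeR adjusted p = 0.00137). Elf3 was 1.28-fold lower in untreated ΔIEC organoids (log2 fold change −0.36 ± 0.076, edgeR adjusted p = 0.00273), with the 282 to 321 CPM of that genotype below the 369 to 421 CPM of fl/fl. After summing by line, which left 0.0721% of all tested genes called, none of the 3 passed (adjusted p of 0.0125 for Maf, 0.0618 for Cdx1 and 0.100 for Elf3). The Elf3 call was lost without untreated ΔIEC replicate 1 (edgeR adjusted p = 0.0152), without untreated fl/fl replicate 4 (0.0101) and without any of the 4 lines (0.0116 to 0.0228). The Cdx1 call was lost without the first ΔIEC line (0.0167) or the first fl/fl line (0.0224).

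Cdx2 moved opposite to Cdx1 in direction, at −0.25 ± 0.074 on the log2 scale, but missed the threshold (edgeR adjusted p = 0.0227). Vdr gave −0.13 ± 0.059, Gata4 −0.12 ± 0.074, Gata6 −0.10 ± 0.079, Hnf4a 0.05 ± 0.06, Hnf4g 0.12 ± 0.19 and Creb3l3 0.23 ± 0.14.

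With IL-22 in both genotypes, 5 members differed. Cdx1 was higher in ΔIEC organoids, and Maf, Vdr, Cdx2 and Gata6 were lower. Of all tested genes 9.91% were called higher and 9.84% lower, and the groups did not overlap in 7 members, against 29.6% of all tested genes. The median log2 difference was −0.24 over the members and 0.01 over all tested genes.

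Maf was counted at 51.9, 53.1, 56.3 and 57.2 CPM in the treated fl/fl cultures and was 2.87-fold lower in ΔIEC organoids (log2 fold change −1.52 ± 0.13, edgeR adjusted p = 2.25e-07). Cdx1 was counted at 73.2, 86.7, 77.9 and 82.1 CPM in fl/fl and at 126, 161, 127 and 132 CPM in ΔIEC organoids. It was 1.71-fold higher in ΔIEC (log2 fold change 0.77 ± 0.088, edgeR adjusted p = 5.47e-06), and both passed in 27 of 27 alternatives. Vdr was 1.34-fold lower (log2 fold change −0.42 ± 0.061, edgeR adjusted p = 5.00e-05), and its adjusted p was 0.0241 once cultures were summed by line.

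Cdx2 was 1.24-fold lower (−0.31 ± 0.075 on the log2 scale, edgeR adjusted p = 0.00341) and Gata6, at 99.4, 99.8, 93.7 and 93.5 CPM in the treated fl/fl cultures, 1.26-fold lower (−0.33 ± 0.08, edgeR adjusted p = 0.00352). These calls held in 19 and 17 of 27 alternatives. Both were lost with cultures summed by line (adjusted p of 0.0974 for Cdx2 and 0.07 for Gata6) and with no filter on low counts (0.0184 and 0.0246). Gata6 was lost as well in limma-voom with correlation within lines (0.0139) and with only the groups compared (0.0114). Without the first ΔIEC line, neither passed (adjusted p of 0.015 for Cdx2 and 0.0341 for Gata6), nor without the second (0.0106 and 0.0112). Cdx2 was lost without the second fl/fl line (0.0373) and Gata6 without the first (0.024). Cdx2 was also lost without treated ΔIEC replicate 1 (0.0113) or treated fl/fl replicate 3 (0.0132) or 4 (0.01003), and Gata6 without treated ΔIEC replicate 1 (0.0111) or treated fl/fl replicate 1 (0.0103) or 2 (0.0128). Hnf4a (−0.21 ± 0.06, edgeR adjusted p = 0.0103) and Elf3 (−0.26 ± 0.075, edgeR adjusted p = 0.0124) lay just outside the threshold, although the cultures of the groups did not overlap. Gata4 (−0.13 ± 0.074), Hnf4g (0.32 ± 0.21) and Creb3l3 (0.03 ± 0.13) did not pass.

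Per kb of exon, Maf had the lowest level of the members in every group. It was lower in ΔIEC than in fl/fl organoids by the largest log2 difference of the members in both states. Other members were called lower in ΔIEC organoids too: Elf3 in the untreated state, and Vdr, Cdx2 and Gata6 with IL-22. Paneth cell markers were also lower in ΔIEC organoids in these genotype comparisons. Of 13 Paneth cell markers 12 were tested. In untreated organoids 8 were lower in ΔIEC and none higher, and with IL-22 9 were lower and none higher. With IL-22 against untreated, 3 rose and none fell in each genotype, opposite to the fall of Maf in ΔIEC organoids. Their summed level was 5735 to 8234 CPM in untreated fl/fl and 3200 to 4205 CPM in untreated ΔIEC cultures, and 7482 to 9958 against 4096 to 4922 CPM with IL-22. No marker of the list was at 0 in all cultures of a group. Among all tested genes, the 3 whose log2 CPM followed Maf most closely over the 16 cultures were Efna3 (Pearson r = 0.97), Gas6 (0.963) and Defa26 (0.958), the last a Paneth cell α-defensin. The part of Paneth cells in the Maf counts was not tested. In bulk samples, fewer cells of a type and less RNA per cell cannot be told apart. Other secretory markers differed between the genotypes as well: 5 of 11 goblet cell markers and 3 of 11 enteroendocrine markers tested were lower, and none higher, in untreated ΔIEC organoids. Maf also shares 440 exon bases with the antisense transcript Gm15655, counted at 2.17 ± 0.52 to 9.55 ± 3.04 CPM over the 4 groups.

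The balance of paralogs was described by ratios of raw counts, a choice made after the values had been seen. The Cdx1/Cdx2 ratio was 0.296 ± 0.00902 (SD, n = 4) in untreated fl/fl and 0.484 ± 0.0358 in untreated ΔIEC organoids, and 0.314 ± 0.0248 against 0.665 ± 0.0546 with IL-22. The Hnf4a/Hnf4g ratio was 15.3 ± 3.46 without and 30.5 ± 5.44 with IL-22 for fl/fl organoids, and 14.9 ± 3.01 and 22.1 ± 7.27 in ΔIEC organoids. The Gata4/Gata6 ratio was 1.72 ± 0.0186 in untreated and 1.79 ± 0.0769 in treated fl/fl organoids, and 1.70 ± 0.0496 and 2.06 ± 0.0752 in ΔIEC organoids. The ratios of Cdx1 to Cdx2 did not overlap between genotypes in either state, and those of Gata4 to Gata6 did not overlap between the genotypes with IL-22. The Hnf4a/Hnf4g ratio was higher with IL-22 within each line: in ΔIEC organoids it went from 11.4 and 13.6 to 16.5 and 15.9 in the first line and from 16.8 and 17.95 to 31.0 and 25.1 in the second. No test was made of these ratios.

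**Figure D3:**
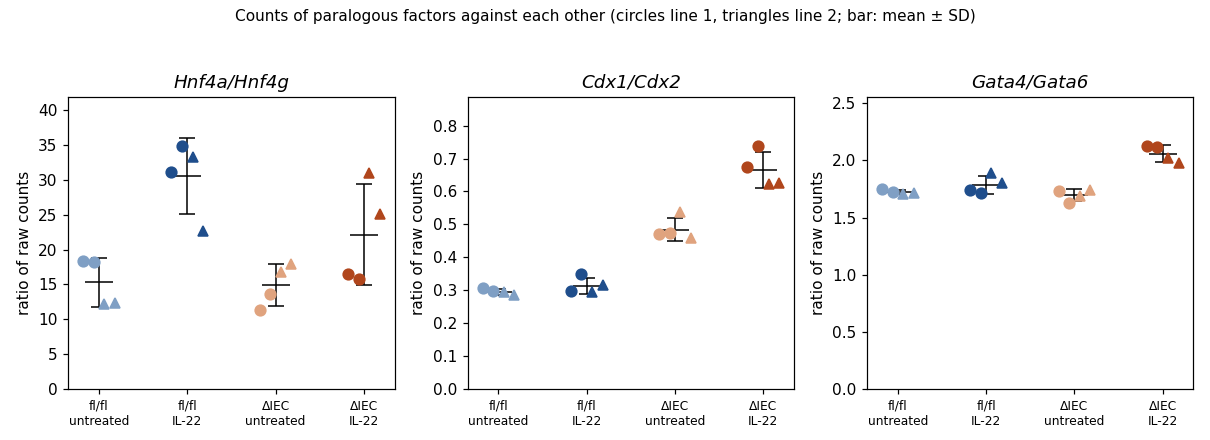
Ratio of raw counts of 3 paralog pairs (vertical axis, from 0, no unit) in each of the 16 cultures, by group; circles are line 1 and triangles line 2, and bars give the mean and SD of 4 cultures. The Cdx1/Cdx2 ratio is at least 0.458 in every ΔIEC culture and at most 0.348 in every fl/fl culture.

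Targets of the members were read from lists of genes placed under each factor from general knowledge. For the lists here and below, the share of all tested genes called with IL-22 was 20.8% in fl/fl and 17.5% in ΔIEC organoids. Between genotypes it was 9.76% in untreated and 19.8% in IL-22–treated organoids, each in either direction. Many enterocyte genes fell with IL-22, also under factors whose own counts did not. Of 17 tested HNF4 targets, 6 fell and 1 rose in each genotype, and the list's median log2 fold changes were −0.24 (fl/fl) and −0.46 (ΔIEC). In the following pairs of log2 fold changes the first is from fl/fl and the second from ΔIEC organoids. Apoc3, an apolipoprotein, fell (−2.63 and −2.82, edgeR adjusted p = 7.15e-06 and 2.96e-06). Fabp2, an intestinal fatty acid binding protein, fell too (−2.35 and −2.06), as did Acaa2, an enzyme of mitochondrial fatty acid oxidation (−0.97 and −0.91). Cdhr5, a protocadherin of the brush border, rose (0.47 and 0.73).

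Of 5 tested CREB3L3 targets, 4 fell in each genotype while Creb3l3 itself did not pass in any comparison. They were Fads1 and Fads2, which desaturate fatty acids, and the apolipoproteins Apoa4 and Apoc3. The log2 fold changes of Fads1 were −0.72 and −0.75 (edgeR adjusted p = 1.10e-06 and 6.90e-07). Of the 5 listed proximal genes under GATA4, 4 fell in fl/fl and 3 in ΔIEC organoids, and Gata4 itself gave log2 fold changes of −0.02 and −0.03. Lct, which encodes lactase, fell in fl/fl (−4.06, edgeR adjusted p = 4.83e-07) and in ΔIEC organoids (−4.37, 2.67e-06). Apoc3, Apoa4, Fabp1, Lct, Vil1, Alpi and Cldn2 stand in more than 1 of the target lists, so the counts are not independent.

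CDX2 targets went both ways. Of 13 tested, 5 rose and 4 fell in fl/fl organoids, and 6 rose and 3 fell in ΔIEC organoids. Lct and Mep1a, a brush border metalloprotease, fell, the latter with log2 fold changes of −1.17 and −1.79. Krt20, a keratin of the surface epithelium (1.54 and 1.15), Muc2, the gel-forming mucin (0.96 and 1.17), and Isx, a homeodomain factor that represses vitamin A uptake genes (1.91 and 2.91), rose. Between genotypes, 4 fell and none rose in untreated ΔIEC organoids, Guca2a (−1.26 ± 0.17), Mep1a (−1.08 ± 0.15), Muc2 (−0.93 ± 0.18) and Cdh17 (−0.29 ± 0.071).

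**Figure D4:**
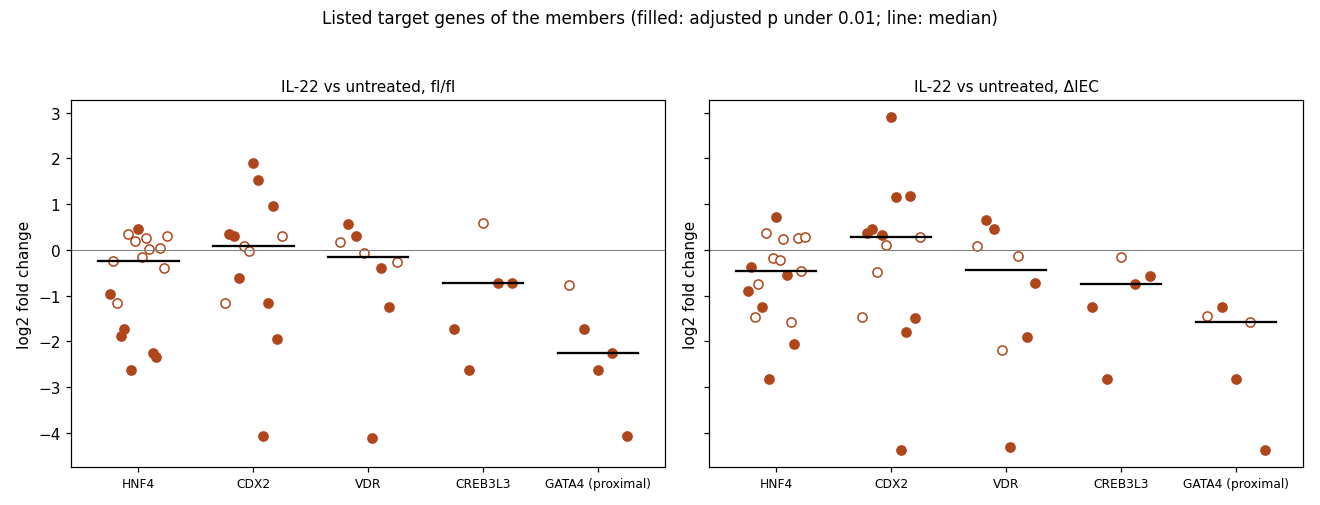
Log2 fold change with IL-22 (vertical axis) of listed target genes of 5 of the factors in fl/fl and ΔIEC organoids; each point is a tested gene, filled where the adjusted p was under 0.01, and the line is the list's median. The medians of the CREB3L3 and GATA4 lists lie below 0 in both genotypes, at −0.72 and −2.26 in fl/fl organoids.

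Vdr fell with IL-22, and so did part of its listed targets. Of 8 tested, 3 fell and 2 rose in each genotype. Cyp3a11, a cytochrome P450 (log2 fold changes −4.10 and −4.30), and S100g, an intestinal calcium-binding protein (−1.25 and −1.90), fell. The claudins Cldn12 (0.56 and 0.65) and Cldn2 (0.30 and 0.46), proteins of tight junctions, rose. Between genotypes, 4 targets were lower in ΔIEC organoids and none higher in either state, while Vdr itself passed with IL-22 only. With IL-22 they were Cyp24a1, which breaks down active vitamin D, at −4.25 ± 0.55, S100g at −2.27 ± 0.33, Slc30a10, a manganese exporter, at −1.87 ± 0.18, and Atp2b1, a calcium pump, at −0.61 ± 0.11. Without IL-22 the values were −2.14 ± 0.40 for Cyp24a1 and −1.61 ± 0.29 for S100g. The IL-22 effects on Cyp24a1 (−0.07 and −2.19) and Atp2b1 (0.16 and 0.09) were not called in either genotype.

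The nuclear receptor partners of VDR and HNF4 and the lipid-sensing receptors showed more calls between genotypes than with IL-22. Of 19 tested, 2 rose and 2 fell with IL-22 in each genotype, close to the 20.8% (fl/fl) and 17.5% (ΔIEC) of all tested genes. Nr1h4, the bile acid receptor FXR, rose (log2 fold changes 0.56 and 1.35), and Ppara, a fatty acid receptor, fell (−1.24 and −1.30). In untreated ΔIEC organoids 6 were lower and none higher, among them Nr1h4 (−1.38 ± 0.14), Ppargc1a, a coactivator of mitochondrial genes (−1.18 ± 0.15), and Ppard (−0.74 ± 0.11). The list's median was −0.17, against −0.02 over all tested genes. With IL-22, 7 were lower and 1 higher.

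Of 34 other intestinal transcription factors tested, 7 rose and 4 fell with IL-22 in fl/fl and 5 rose and 3 fell in ΔIEC organoids. Mafk, a small MAF protein without a transactivation domain, rose (log2 fold changes 0.75 and 0.52), as did Gata5 (0.59 and 0.96). Hes1, a Notch target, fell (−0.49 and −0.67). Between genotypes, Atoh1, the factor of secretory fate, was lower in untreated ΔIEC organoids (−0.76 ± 0.16), and Ehf, an ETS factor related to Elf3, was higher (0.40 ± 0.10). Of the 34, 1 was lower and 1 higher there, against 9.76% of all tested genes called.

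Regional genes were set beside the regional factors. Some of them, such as Lct and Nr1h4, also stand in the lists above. Of 14 tested genes of the proximal small intestine, 8 fell with IL-22 in fl/fl and 6 in ΔIEC organoids and none rose. Slc2a2, the GLUT2 sugar transporter, fell (log2 fold changes −2.67 and −2.79), as did Slc5a1, the sodium-glucose cotransporter (−1.13 and −0.95). Of 9 tested ileal genes, 2 rose and 2 fell in each genotype. In untreated ΔIEC organoids 4 ileal genes were lower and none higher, among them Fgf15, an ileal hormone (−3.33 ± 0.71), and Cubn, the receptor for the vitamin B12 complex (−2.25 ± 0.31). Of 12 colon genes 4 and of 12 stomach genes 3 reached the filter.

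Among the members, the closest pair over the 16 cultures was Cdx2 and Gata6 (Pearson r = 0.815), and Maf and Cdx1 ran most strongly against each other (r = −0.913). These are descriptions over cultures that share genotype, treatment and line. Maf was lower and Cdx1 higher in every ΔIEC culture than in every fl/fl culture. Genes whose log2 CPM followed a member most closely were Hk2 (r = 0.994), Jak3 (0.993) and Inf2 (0.99) for Elf3, and Fam13a (0.982), Reg4 (0.981) and Serinc5 (0.98) for Vdr. For Hnf4g they were Cyp2b10 (0.958), Maoa (0.954) and Scin (0.942), for Hnf4a Gna13 (0.896), Dock5 (0.886) and Galnt6 (0.871). For Cdx1 they were Eif4g1 (0.965), Ppm1g (0.956) and Tmem62 (0.951), and for Cdx2 Cyp2d22 (0.954), Acss2 (0.95) and Prss23os (0.943). For Gata4 they were Pde4a (0.876), Impdh1 (0.848) and Ilvbl (0.847), and for Gata6 Tmem8b (0.957), Wnk2 (0.949) and Paox (0.948). Creb3l3 had no gene above an r of 0.763, the value of Phf20l1, followed by Faap24 (0.736) and Gm12905 (0.734).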

How the data were processed

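RNA of 16 organoid cultures was sequenced in pairs of reads. The authors trimmed reads with cutadapt, aligned them to GRCm38 (mm10) with TopHat2 and deposited HTSeq counts per gene, whole numbers without normalization. The kit is TruSeq RNA v2 in the labels but a stranded TruSeq protocol in the paper's methods. The strand setting and the annotation release are not given in the sources used here. Of 49585 genes, 49326 were matched by Ensembl identifier without version to GENCODE M21. HTSeq's summary lines were left out of all tests, and 36.3% to 38.3% of the reads in the table were on genes.

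Counts were tested in R 4.3.3 with edgeR 4.0.16: TMM scaling, the filter on low counts by group (12559 genes left), 1 quasi-likelihood fit of 4 group means, two-sided tests, Benjamini-Hochberg adjustment over all tested genes and a threshold of 0.01. An SE is the size of a log2 fold change over the root of its F statistic. Log2 CPM used a prior count of 2. Fold changes of lists are counts and medians, with no set test. The fit was tested on simulated data made with known changes. These data held no differences between lines, so that test does not cover the nesting of cultures in lines. Depth limits the precision: per culture, members had 52 to 6528 counts. Standard errors hold the spread between cultures as well as counting error.

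Lines pair the cultures for the IL-22 effects, since the labels give treated and untreated cultures the same line: deviations from group means correlated at 0.263 to 0.438 within and −0.435 to −0.218 between fl/fl lines, and at 0.0563 to 0.321 and −0.352 to −0.0779 in ΔIEC. A block by line was fitted for these and the interaction, not between genotypes, in which lines are nested.

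Named were all 10 members, up to 4 genes per list with the smallest p among those called, and the 3 genes most correlated with each member. Members and lists were chosen with earlier results of these data known. Alternatives were RLE scaling, DESeq2 1.42.0, no filter, at least 10 counts in every culture, an adjusted p under 0.05 and only the groups compared. Further ones were summed cultures of a line, the line block, limma-voom 3.58.1 with correlation within lines (0.261), and each culture or line left out. The numbers of alternatives passed include leaving out cultures of groups not compared. Those act on a comparison only through the shared spread, filter and scaling.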

Additional observations from a re-analysis of the deposited data

Results flagged for a closer look

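In 3 of the 40 sets of 4 cultures (10 members in 4 groups), 1 culture stood apart from the other 3 by Dixon's criterion at the 95% level. Chance flags about 1 in 20 sets. Hnf4a was low in replicate 4 of the untreated ΔIEC organoids, at 954 CPM against 1020 to 1033 CPM in the others. Hnf4g was high in replicate 4 of the IL-22–treated fl/fl organoids, at 50.6 CPM against 36.0 to 38.0 CPM, and without that culture its IL-22 effect in fl/fl passed the threshold (edgeR adjusted p = 0.0073). Creb3l3 was high in replicate 3 of the untreated ΔIEC organoids, at 71.6 CPM against 62.3 to 63.7 CPM.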

How the results depend on the processing

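Elf3 and Vdr kept their direction and passed in all 28 alternatives for the IL-22 effect in each genotype, and Maf and Cdx1 in all 27 for the genotype difference with IL-22. Of 1370 alternative values of single members, 1262 kept direction and call, 45 lost and 37 gained a call, and 26 changed sign, none of them of a called value. Where the number of members called moved beyond 1.5 times, the cause was not tested. The shares of all tested genes moved too and are given in parentheses. For IL-22 in fl/fl, 5 members passed, in place of 3 (20.8%), with line as a block (30.6%) and at an adjusted p under 0.05 (32.3%). For IL-22 in ΔIEC, 2 passed, in place of 4 (17.5%), without the second ΔIEC line (7.06%). For the interaction, DESeq2 called 1 (0.0876%), in place of 0 (0.0159%). For untreated ΔIEC against fl/fl, 0 passed, in place of 3 (9.76%), with cultures summed by line, which leaves 2 values a group (0.0721%), and 1 without the first fl/fl line (4.16%). For the genotypes with IL-22, 3 passed, in place of 5 (19.8%), with no filter on low counts (11.6%) and without the first ΔIEC line (7.38%), 2 with cultures summed by line (1.36%), and 3 to 6 with 1 culture left out; leaving out replicate 1 of the treated ΔIEC cultures gave the lowest (16.3%). The block changed no call other than those of Hnf4g and Cdx2.

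Signs changed near 0. On the log2 scale, Gata4 with IL-22 in fl/fl was 0.094 without the first fl/fl line and −0.059 to 0.025 with 1 culture left out, and in ΔIEC −0.068 to 0.016. Its interaction was 0.0055 with summed cultures, 0.068 without the second fl/fl line and −0.055 to 0.034 with 1 culture left out. Creb3l3 with IL-22 was −0.046 in fl/fl without the second line and −0.019 to 0.21 with 1 culture left out, and 0.035 in ΔIEC without the second line. Its genotype difference with IL-22 was −0.099 without the first ΔIEC and −0.13 without the first fl/fl line, and −0.040 to 0.16 with 1 culture left out. Hnf4a with IL-22 in ΔIEC was −0.043 without the second ΔIEC line, and the interactions were 0.062 for Cdx2 without the first and −0.013 for Elf3 without the second. The genotype difference of Hnf4g was −0.20 without the first ΔIEC line, −0.13 without the first fl/fl line and −0.035 to 0.22 with 1 culture left out untreated, and −0.092 without the first ΔIEC line with IL-22. Maf had the lowest counts over all cultures, 52 to 300, with the lowest in ΔIEC. In fl/fl cultures it had 131 to 300 counts and Hnf4g 96 to 286. Hnf4g had a larger SE than Maf for IL-22 in fl/fl, 0.20 against 0.11. The SE of Hnf4g fell to 0.10 with line as a block.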
